A study of Mus musculus with 4 samples.

Results

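The G2 and mitosis genes are a set of 36 genes, out of 19321 in the table, whose products act between the end of DNA replication and the separation of the daughter cells. The members were a fixed list of gene symbols, and all 36 were found. They were followed in gonads of XX mouse embryos of the strain C57BL/6, with no treatment or transgene named, at 4 daily stages of development from E11.5 through to E14.5. Each stage was 1 library of dissociated gonad cells, made with the droplet-based 10x Genomics 3′ kit, so the groups differ in age and in library and these cannot be told apart. How many embryos went into a library is not given in the sources used here. No test between stages was possible and no p-value is given. All intervals are exact 95% intervals that cover counting error only.

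Entry into mitosis is driven by the kinase CDK1 bound to a B-type or A-type cyclin, and the anaphase-promoting complex ends mitosis by marking cyclin B and other proteins for destruction. Between these points chromosomes are condensed, kinetochores attach them to the spindle, and the cytokinesis machinery divides the cell. The transcripts of these genes are low in resting and early G1 cells and accumulate through S phase into G2. In the fetal ovary germ cells divide as oogonia and then enter meiosis, a step that requires Stra8 (the retinoic acid-induced gatekeeper of meiotic entry), and they arrest in the prophase of the first meiotic division. Many of the same proteins serve that prophase or the meiotic divisions, so a transcript of the set is not by itself a sign of mitosis. Supporting cells, the precursors of granulosa cells, leave the cell cycle in the fetal ovary, while interstitial and surface epithelial cells go on dividing.

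The promoters of such genes often carry CCAAT boxes, bound by the factor NF-Y, and a cell cycle genes homology region (CHR), bound by the MuvB complex that holds these genes down in resting cells and raises them in G2. RefSeq windows from 250 bases before to 50 bases after the start were given for 32 members (assembly GRCm38.p6; Ccna2, Aurkb, Tpx2 and Smc4 were not matched). On either strand, CCAAT was found in 24 of the 32 (75%), against 41.06% of the 27025 genes in the table of windows. TTTGAA or TTCGAA, the CHR letters searched, was likewise found in 24 of the 32 (75%), against 21.66% of all genes. Both occurred in 62.5% of members, 8.614% of all genes and 13.64% of the S-phase genes described further on. The shares were not particular to the members. Of 43 other genes of the same pathway with a window, 74.42% held CCAAT, 67.44% a CHR and 60.47% both. A CCAAT and a CHR motif overlapped in 1 of the 34 member windows, some members having several. These matches describe letters and not bound sites. The stretches below belong to 4 members that were lower in E14.5 germ cells with high Stra8 (Cdk1, Ccnb1, Cdc20, Aurka) and 4 that were not (Top2a, Hmgb2, Bub1, Kif23), since this contrast is the main pattern among the germ cells. Each lies upstream of the start outside annotated exons and is written 5′ to 3′ on the strand of the gene. Capitals mark CCAAT and the CHR letters, or their complements ATTGG and TTCAAA.
Cdk1, chr10:69352939-69353058, minus strand: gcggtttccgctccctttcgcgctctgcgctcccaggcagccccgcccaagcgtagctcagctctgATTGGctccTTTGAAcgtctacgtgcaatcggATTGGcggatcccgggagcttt
Ccnb1, chr13:100786571-100786690, minus strand: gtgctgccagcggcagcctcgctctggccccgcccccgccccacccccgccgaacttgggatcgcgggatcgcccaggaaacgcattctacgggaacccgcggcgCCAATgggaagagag
Cdc20, chr4:118437353-118437472, minus strand: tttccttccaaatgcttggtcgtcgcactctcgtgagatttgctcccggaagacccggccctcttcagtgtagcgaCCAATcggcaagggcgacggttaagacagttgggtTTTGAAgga
Aurka, chr2:172370571-172370680, minus strand: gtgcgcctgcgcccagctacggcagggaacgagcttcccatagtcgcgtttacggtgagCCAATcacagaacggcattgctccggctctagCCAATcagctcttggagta
Top2a, chr11:99024190-99024309, minus strand: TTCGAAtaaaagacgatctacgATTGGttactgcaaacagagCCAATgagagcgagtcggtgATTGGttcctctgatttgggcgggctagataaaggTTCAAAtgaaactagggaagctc
Hmgb2, chr8:57511723-57511842, plus strand: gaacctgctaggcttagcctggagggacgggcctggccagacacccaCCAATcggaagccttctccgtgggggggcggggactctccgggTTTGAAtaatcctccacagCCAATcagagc
Bub1, chr2:127831866-127831985, minus strand: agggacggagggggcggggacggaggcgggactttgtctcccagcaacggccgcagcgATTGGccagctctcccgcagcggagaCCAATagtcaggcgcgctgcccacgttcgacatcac
Kif23, chr9:61946800-61946919, minus strand: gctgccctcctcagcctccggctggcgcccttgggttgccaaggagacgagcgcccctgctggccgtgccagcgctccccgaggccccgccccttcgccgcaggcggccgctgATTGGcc
All 8 stretches hold a CCAAT box on 1 of the strands, and Cdk1, Cdc20, Hmgb2 and Top2a also hold a CHR within the printed bases. Of the 10 members lower with Stra8, 8 had a window, and 7 of these held CCAAT and 5 a CHR. Of the other 26, 24 had a window, and 17 held CCAAT and 19 a CHR. The motif shares of the 2 sets are given as a description.

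The 4 libraries held 4916, 4842, 4842 and 4787 barcodes, with a median of 14258, 12819, 11361 and 13348 unique molecular identifiers (UMIs, counted RNA molecules) a cell. The lowest total of a cell was 8823, 9791, 5407 and 7854, so the E13.5 library reached to shallower cells than the others. Barcodes also found in another library numbered 101, 94, 85 and 74. After doublets and cells rich in mitochondrial RNA were left out, 18965 of 19387 cells remained. Germ cells, with a UMI of at least 3 of the 6 markers Dazl, Ddx4, Dnd1, Mael, Dppa5a and Mov10l1, numbered 245, 650, 753 and 2410 in stage order, and supporting cells, by at least 3 of Fst, Wnt4, Wnt6, Irx3 and Runx1, 2037, 2117, 1713 and 640. Interstitial cells (905, 574, 1047 and 447) and surface epithelial cells (236, 259, 179 and 244) were found by lists of 8 and 7 markers, and each somatic class excluded cells that met another rule. The germ class did not: 13, 42, 37 and 157 germ cells in stage order also met a somatic rule. Markers not used in the rules set germ cells apart from somatic cells, and the somatic classes from each other less sharply. Pou5f1, a pluripotency factor of germ cells, had 140.3 to 175 CPM in germ cells (CPM being the UMIs of a gene over all cells of a class, scaled to the same total for every class) and at most 3.65 CPM in the somatic classes, and Gata4, a somatic gonad factor, was at 107 to 160.1 CPM in supporting cells and at most 5.17 CPM in germ cells. Foxl2, the defining granulosa factor, had 4, 4, 7 and 0 UMIs in all supporting cells, so the label of that class rests on its other genes. Col3a1 was at 200 to 504 CPM in interstitial, 130 to 215 CPM in surface epithelial and 22.2 to 67.2 CPM in supporting cells. Krt18 was at 94.1 to 387 CPM in surface epithelial, 61.6 to 119.5 CPM in supporting and 17.1 to 36.9 CPM in interstitial cells. Stra8, a germ cell gene, had 0, 0, 21 and 100 UMIs in supporting cells (13.9 CPM at E14.5, against 913 CPM in germ cells), and the 6 germ markers summed to 27.5 to 46.9 CPM there, against up to 3317 CPM in germ cells. The part of such stray germ cell RNA in the somatic values was not tested.

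Germ cells carried the set at a high level at every stage. The 36 genes summed to 5695, 6857, 6097 and 5872 CPM in stage order, with counting intervals no wider than 106 CPM. The level was highest at E12.5 and the E11.5 and E14.5 values were close: the log2 ratio of E14.5 against E11.5 was 0.04 (0.03 to 0.06). The sign of that ratio depends on the scale, because the median gene tested was 0.29 higher at E14.5 and scaling by the median of ratios, which takes off 0.27, puts the sum at -0.23. Step by step the log2 ratios of the sum were 0.27 (0.25 to 0.28) for E12.5 against E11.5, -0.17 (-0.18 to -0.16) for E13.5 against E12.5 and -0.05 (-0.06 to -0.04) for E14.5 against E13.5. The sign of the last step turned with germ cells defined by at least 2 markers (0.032) and as the median of the members (0.034). Erythroid markers summed to 2273, 1560, 1392 and 4519 CPM in germ cells in stage order. Their part was not tested beyond leaving out cells with over 1% of such UMIs. Of the 36 members 18 had their highest germ cell level at E12.5 and 9 at E14.5, while 4 were highest at E11.5 and 5 at E13.5. The near-constant sum thus covers members that differed in direction.

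**Figure D1:**
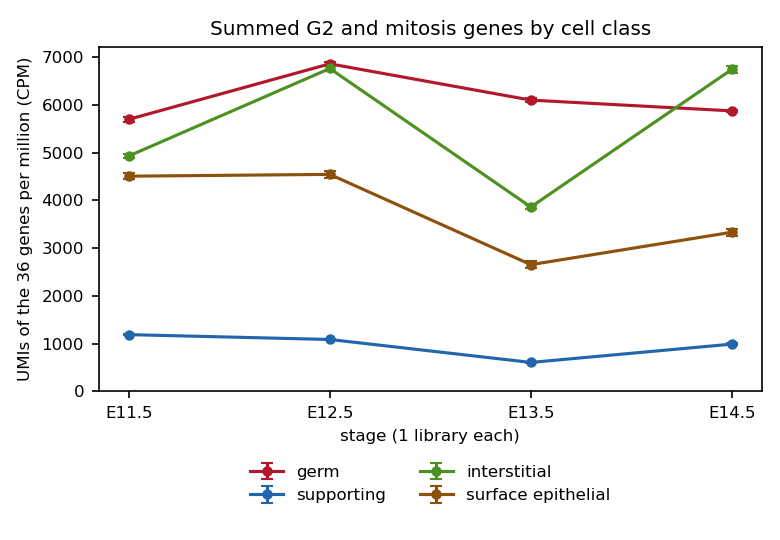
Summed level of the 36 G2 and mitosis genes (CPM, vertical axis from 0) against stage for the 4 cell classes, with bars for exact Poisson 95% intervals of 1 library each. The germ cell line stays between 5695 and 6857 CPM and the supporting cell line between 605 and 1187 CPM, while the interstitial and surface epithelial lines are lower at E13.5 than at E12.5.

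A gene was called higher or lower where it had at least 50 UMIs over the groups compared and 20 CPM in the higher one, differed at least 2-fold, and its Poisson intervals did not overlap. By this rule 5 members rose and 2 fell in germ cells between E11.5 and E14.5, out of 35 that met the minimums, where 22.4% of all genes tested were called higher and 8.05% lower. Both shares of members lay below the background. On the median-of-ratios scale 3 were higher and 7 lower, and Smc4 and Ect2 were no longer called. With germ cells defined by at least 2 markers, Aurka was no longer called. The 5 that rose were Bub1, Kif23, Hmmr, Smc4 and Ect2, and the 2 that fell were Aurkb and Aurka. Between neighbouring stages 4 rose at E12.5 (background 2.01% higher, 0.246% lower), none was called at E13.5 (0.84% and 0.606%) and 1, Gtse1, a microtubule-binding regulator of p53, fell at E14.5 (8.35% and 2.36%). The 4 of the first step were Ect2, Cenpe, Kif20b and Hmmr.

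CDK1 and its cyclins gave the lowest ratio of all roles. Their sum was 1204, 1335, 1192 and 851 CPM over the 4 stages, a log2 ratio of -0.50 (-0.53 to -0.47) for E14.5 against E11.5, and most of that difference lay in the last step, at -0.49. Cks2, the small CDK-binding subunit and the most abundant gene of this role, was at 638, 683, 549 and 382 CPM. Ccnb1, the cyclin that triggers mitotic entry, was at 184, 195, 179.6 and 109 CPM. Both were level or slightly higher at E12.5 and lowest at E14.5, and neither reached a 2-fold difference over the whole period. Ccna2, the S and G2 cyclin, was at 122, 123, 125 and 71.4 CPM and Cdk1 itself at 84.6, 93.7, 82.8 and 64.5 CPM. Ccnb2, the other B-type cyclin, went the other way with 174, 241, 256 and 224 CPM and a log2 ratio of 0.36 (0.28 to 0.44). The 2 B-type cyclins thus differed in order: Ccnb1 was about as abundant as Ccnb2 at E11.5 and lower at E14.5.

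Among the mitotic kinases the Aurora kinases fell and the checkpoint kinase Bub1 rose. Aurka, which matures centrosomes and the spindle poles, was at 82.7, 78.3, 59.8 and 38.9 CPM, a log2 ratio of -1.09 (-1.22 to -0.95) for E14.5 against E11.5. Aurkb, the kinase of the chromosomal passenger complex, was at 45.5, 37.1, 26.9 and 15.01 CPM, a log2 ratio of -1.60 (-1.79 to -1.41). Both were lower at each later stage. Bub1, which guards chromosome attachment and protects centromeric cohesion, was at 35.8, 63.3, 55.1 and 102 CPM, a log2 ratio of 1.51 (1.34 to 1.69), the highest of the set. Plk1, the kinase that links entry, spindle and exit, was at 35.2, 43.2, 43.7 and 37.8 CPM and the checkpoint kinase Ttk at 17.01, 22.5, 30.2 and 29.6 CPM, neither called. The kinase sum was at 216, 244, 216 and 224 CPM.

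All kinetochore genes but Nuf2 had their highest level at E12.5. Cenpf, a large protein of the outer kinetochore, was at 275, 541, 344 and 386 CPM, and Cenpe, the kinetochore motor, at 46.5, 100.1, 67.1 and 83.1 CPM. Cenpa, the histone H3 variant that marks centromeres, was at 360.0, 363, 344 and 244 CPM and was lowest at E14.5, a log2 ratio of -0.56 (-0.62 to -0.50) that did not pass the rule. Ndc80 and Nuf2, which form the microtubule-binding complex, stayed between 10.7 and 24.3 CPM, and Ndc80 did not meet the minimum of 20 CPM in any stage.

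Chromatin genes made up the largest part of the set. Hmgb2, a DNA-bending protein abundant in dividing and meiotic cells, alone gave 1609.6, 1725, 1703 and 1862 CPM. It was detected after thinning to 5000 UMIs in 99.1% to 100% of germ cells, so nearly every germ cell carried it at each stage. Top2a, the topoisomerase that disentangles sister chromatids, was at 315, 404, 361 and 398 CPM, with no call. Smc4, the condensin subunit, was at 102, 159, 159 and 237 CPM, a log2 ratio of 1.22 (1.12 to 1.33). Mki67, the coat protein of mitotic chromosomes, was at 43.7, 81.3, 47.3 and 51.8 CPM and was highest at E12.5.

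Of the spindle genes Hmmr, an adaptor at spindle poles, rose, at 24.7, 51.4, 34.6 and 61.4 CPM and a log2 ratio of 1.31 (1.10 to 1.53). Tpx2, the activator of Aurora A and the spindle gene with the most UMIs over all germ cells pooled, was at 64.9, 109.8, 90.3 and 114 CPM. Its level in E14.5 germ cells stood above that in E11.5 while that of its partner Aurka stood below. Gtse1 was at 36.3, 40.5, 41.5 and 20.5 CPM. Nusap1, Tacc3, Ckap2, Kif11 and Kif2c, which bundle, nucleate or depolymerise spindle microtubules, had log2 ratios from -0.06 to 0.50 and none was called. Nusap1, at 82.2, 124, 114 and 78.97 CPM, stood above Tpx2 at all stages but E14.5.

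The cytokinesis genes held 2 of the 5 that rose. Kif23, the motor of the central spindle, was at 24.4, 42.7, 40.5 and 62.8 CPM, a log2 ratio of 1.36 (1.15 to 1.58), and Ect2, the exchange factor that activates RhoA for furrowing, was at 23.7, 52.4, 41.7 and 53.8 CPM, a log2 ratio of 1.18 (0.97 to 1.41). Birc5, the survivin subunit of the passenger complex and the gene of this role with the most UMIs over all germ cells pooled, was at 193, 184, 146 and 162 CPM. Its partners in the same complex differed: Cdca8 (borealin) was at 156, 173, 152 and 165 CPM, nearly level and above Birc5 at E13.5 and E14.5, while Aurkb fell. Anln and Kif20b, a furrow scaffold and a midzone motor, were not called over the whole period. In the anaphase-promoting complex group, Ube2c, its ubiquitin-conjugating enzyme, was at 388, 450.4, 414 and 272 CPM, its activator Cdc20 at 125, 144, 139 and 127 CPM and Cdca3, a trigger of mitotic entry, at 161, 155, 149 and 93.1 CPM. None of the 3 was called, and their sum gave -0.45 (-0.50 to -0.41).

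Within the E14.5 library the set differed by the Stra8 level of the cell. Germ cells were divided by Stra8 UMIs per 10000 UMIs into none (0; 120 cells), low (under 2; 214), middle (2 to under 10; 962) and high (10 or more; 1114). The set summed to 6409, 7179, 6471 and 4801 CPM from none to high, so it was highest in low cells and lowest in high cells. High against none gave a log2 ratio of -0.42 (-0.44 to -0.39), and -0.10 with germ cells defined by at least 2 markers. None of the 35 members that met the minimums was higher and 10 were lower, where 12.9% of all genes were called higher and 11% lower. The none cells carried more RNA of somatic markers, with 175 CPM of the 5 supporting markers against 36.2 CPM in high cells. The share of them with 3 or fewer UMIs of the set after thinning had an interval of 7.17% to 19.8%, against 0.00227% to 0.499% in high cells. High against low gave -0.58 (-0.60 to -0.56), with 0 members higher and 12 lower (background 11.1% and 6.15%). The 2 further ones were Gtse1 and Cenpa. Low cells carried 68.4 CPM of supporting markers. Leaving out germ cells that also met a somatic rule kept 92 of the 120 none and 1076 of the 1114 high cells. High against none then gave -0.54. Middle and high cells joined, against none, gave 3 lower (Aurkb, Ccnb1 and Aurka) and 0 higher (background 7.37% and 8.07%). Median depth was 19345, 20322.5, 16496.5 and 14170 UMIs from none to high, and the part of depth or of somatic RNA in these differences was not tested. Erythroid markers summed to 6340, 6317, 4826 and 3424 CPM from none to high. Their part was not tested beyond leaving out cells with over 1% of such UMIs.

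The 10 lower members came from 4 roles. They were 4 of the 5 CDK1 and cyclin genes, 3 of the 5 kinases, 2 of the 3 anaphase-promoting complex genes and 1 of the 8 spindle genes, while none of the 5 kinetochore, 4 chromatin or 6 cytokinesis genes passed. Ccnb1 had the lowest ratio of the set: 202, 213, 142 and 31.9 CPM from none to high, a log2 ratio of -2.66 (-2.84 to -2.48). The share of cells with a Ccnb1 UMI after thinning to 5000 UMIs was 50.8%, 55.6%, 36.8% and 10.6%, and 81.7%, 86.9%, 60.7% and 22.1% without thinning. Most of the Ccnb1 difference therefore lay between middle and high cells. At such low counts the share of cells with a UMI falls with the mean level. It cannot tell fewer cells with the transcript from less of it per cell. Ccnb2, which differed from Ccnb1 over the stages too, was at 234, 293, 261 and 165 CPM and was not called.

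Cks2 was at 546, 617, 468 and 203 CPM from none to high, a log2 ratio of -1.43 (-1.52 to -1.33), and Ccna2 at 114, 119.9, 85.5 and 36.7 CPM, -1.64 (-1.85 to -1.43). Cdk1 was at 90.4, 92.8, 73.2 and 43.5 CPM, -1.05 (-1.27 to -0.83), the smallest of the 10 differences, and it no longer reached 2-fold when class and Stra8 level were read in thinned cells. The kinases that were lower were Aurkb at 32.5, 24.2, 18.3 and 6.37 CPM, Aurka at 68.6, 65.8, 48.1 and 17.4 CPM and Plk1 at 62.9, 59.5, 49.2 and 15.97 CPM. Their log2 ratios of -2.35, -1.98 and -1.98 followed that of Ccnb1. Of the anaphase-promoting complex group, Ube2c was at 411, 446, 331 and 142 CPM and Cdc20 at 181, 193, 156 and 69.3 CPM. The spindle gene that was lower was Nusap1, which bundles microtubules, at 119, 132, 93.4 and 43.1 CPM.

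The other members were not called in either direction. Hmgb2 was at 1682, 1937, 2002 and 1722 CPM from none to high and Top2a at 366, 424, 379.6 and 414 CPM. Kif23 was at 39.9, 40.5, 62.8 and 72.5 CPM, Bub1 at 73.1, 81.1, 97.3 and 118 CPM and Ect2 at 39.9, 46.1, 53.4 and 58.5 CPM, with log2 ratios for high against none of 0.86 (0.56 to 1.18), 0.69 (0.46 to 0.92) and 0.55 (0.25 to 0.87). Smc4 was at 185, 220.3, 241 and 247 CPM. These 4 were highest in high cells, and none of them reached 2-fold by the main definition of germ cells. With germ cells defined by at least 2 markers, the ratios of Bub1, Kif23 and Ect2 lay above 2. That definition changed the reference group, to 259 none cells from 120, while the high cells stayed at 1114. The part of the added none cells in these ratios was not tested. Kinetochore genes lay between the extremes: Cenpa was at 307, 352, 288 and 159 CPM and Cenpf at 463, 526, 435 and 284 CPM, both short of 2-fold against none, while Cenpa passed against low cells. Birc5, at 153, 176, 165 and 156 CPM, and Aurkb, its kinase partner, differed in this split as they did over the stages. Mki67 was at 62.9, 67.5, 57.4 and 39.9 CPM, not called.

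**Figure D2:**
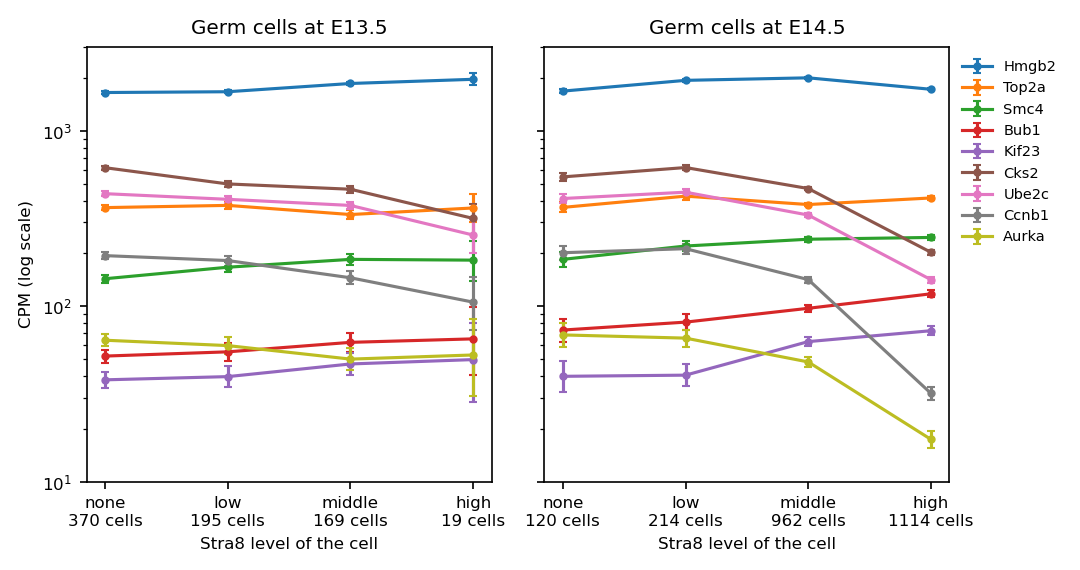
Level (CPM, log axis) of 9 members in germ cells of E13.5 (left) and E14.5 (right) by Stra8 level of the cell, with exact Poisson 95% intervals and the number of cells under each level. At E14.5 Ccnb1, Aurka, Cks2 and Ube2c are lowest in high cells while Bub1, Kif23 and Smc4 are highest there, and at E13.5 the 19 high cells give wide intervals.

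At E13.5, when Stra8 was at 130.2 CPM in germ cells, the split held 370, 195, 169 and 19 cells from none to high. The set summed to 6231, 5995, 5949 and 5345 CPM, and high against none gave -0.22 (-0.29 to -0.15) with 0 members higher and 2 lower (Aurkb and Ccna2), where 10.7% of all genes were called higher and 6.05% lower. With germ cells defined by at least 2 markers the ratio was -0.0116. The 19 high cells held 3 UMIs of Aurkb and 19 of Ccna2. High against low gave 1 lower, Ccna2, and 0 higher (background 3.37% and 5.8%). With middle and high cells joined, 188 cells, the log2 ratio was -0.08 (-0.10 to -0.06) and no member was called in either direction (background 2.6% and 2.08%). Ccnb1 was at 194, 182, 145 and 105.5 CPM and Cks2 at 616, 497, 464 and 316 CPM from none to high, with log2 ratios for middle or high against none of -0.45 (-0.58 to -0.32) and -0.44 (-0.52 to -0.37). Cenpa was at 369.5, 329.7, 309 and 208 CPM. The kinases Plk1, at 42.5, 46.3, 44.8 and 27.9 CPM, and Aurka, at 63.99, 59.6, 49.9 and 52.7 CPM, had overlapping intervals in none and high cells. In the other direction stood Kif23 at 38.1, 39.7, 46.9 and 49.6 CPM, Smc4 at 143, 167, 185 and 183 CPM and Bub1 at 51.97, 54.9, 62.2 and 65.1 CPM, with overlapping intervals in none and high cells. For middle or high against none, the log2 ratios of Kif23, Smc4 and Bub1 were 0.31 (0.05 to 0.56), 0.37 (0.24 to 0.49) and 0.27 (0.05 to 0.48).

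In germ cells with no Stra8 UMI the sum of the set was 6231 CPM in the E13.5 library and 6409 CPM in the later one, with a log2 ratio of 0.04 (0.02 to 0.07), and 0 members were called higher or lower (background 3.67% and 0.41%). Ccnb1 was at 194 and 202 CPM in them and Aurka at 63.99 and 68.6 CPM, where all germ cells gave 179.6 and 109 CPM of Ccnb1. Single members had log2 ratios from -0.90 to 0.63. The none cells were 370 of 753 germ cells at E13.5 and 120 of 2410 at E14.5. They held 56.8 and 175 CPM of the supporting markers, and their share with 3 or fewer UMIs of the set had intervals of 1.12% to 4.57% and 7.17% to 19.8%, whose part in the comparison was not tested.

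**Figure D3:**
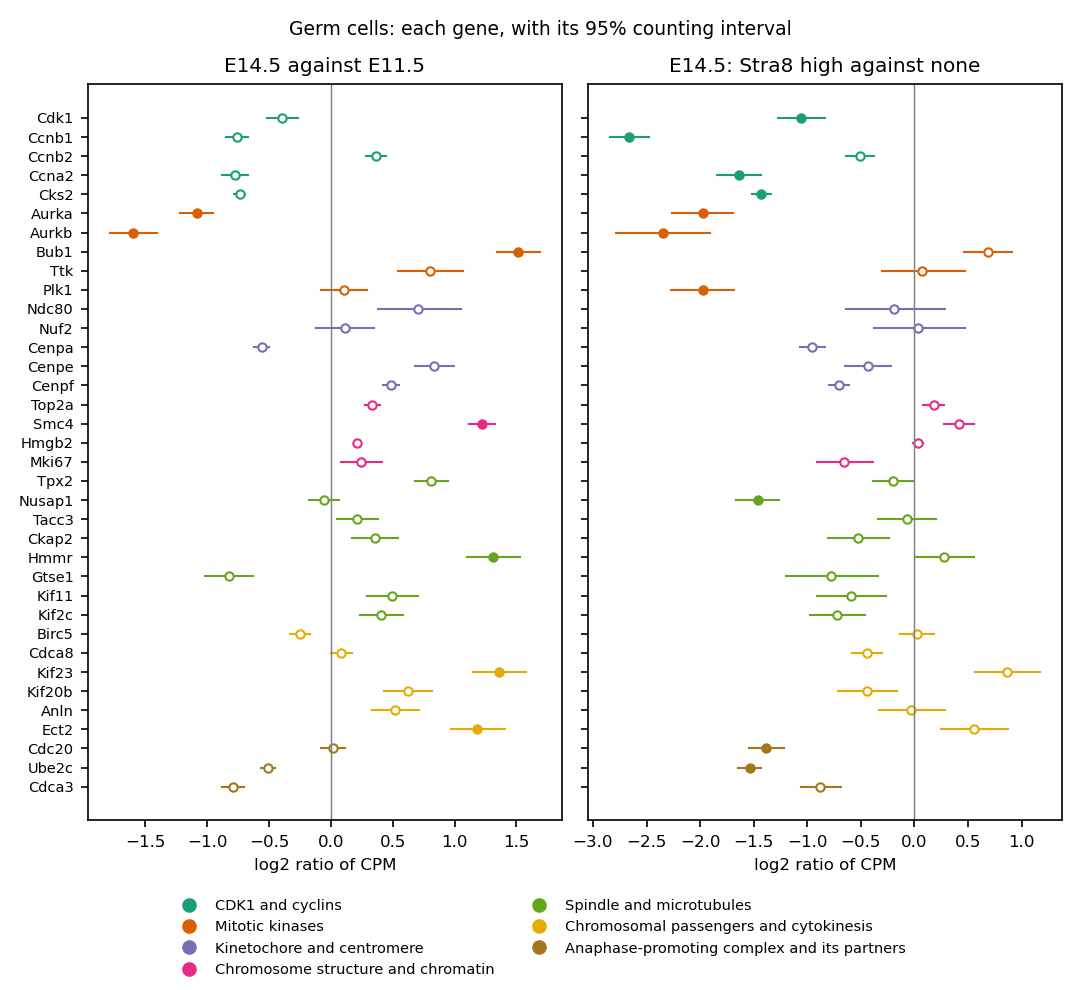
Log2 ratio of CPM for each of the 36 members in germ cells, E14.5 against E11.5 (left) and, at E14.5, high against no Stra8 (right), coloured by role, with lines for 95% counting intervals and filled points for members past the 2-fold rule. Filled points lie on both sides of 0 at left (5 above, 2 below) and only below 0 at right (10).

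Single germ cells spread around one level. Each cell was thinned to 5000 UMIs, below the total of every cell kept, and the median germ cell then had 26, 32, 29 and 25 UMIs of the set in stage order, with 10th percentiles of 17, 18, 16 and 14 and 90th percentiles of 40.6, 50, 46 and 47. Cells with 3 or fewer UMIs of the set were 0.408%, 0.154%, 1.33% and 0.871% of germ cells (upper limits 2.25%, 0.854%, 2.43% and 1.33%). Germ cells with next to none of these transcripts were thus rare at every stage, and the 1114 Stra8-high cells of E14.5 still had a median of 22 UMIs. These totals include Hmgb2, found after thinning in 99.1% to 100% of germ cells, and were not taken without it. The median germ cell had UMIs of 12, 14, 13 and 12 members. Supporting cells were at the other end, with medians of 2, 2, 1 and 2 UMIs. In them 71.4%, 83%, 90.5% and 81.4% of the cells had 3 or fewer, and 4.91%, 5.38%, 2.28% and 4.53% had 20 or more, with the highest cell at 106.

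Interstitial and surface epithelial cells were spread from cells with next to none to cells above any germ cell of the same stage. Interstitial medians were 9, 26, 4 and 26 UMIs, the shares with 20 or more were 38.2%, 55.6%, 26.7% and 55.3%, and the 90th percentiles of 61, 72, 52 and 85 all exceeded those of germ cells. Surface epithelial medians were 15, 10, 3 and 4 UMIs, and 41.5%, 37.8%, 20.7% and 22.5% of the cells had 20 or more. The limit of 20 UMIs is a point on a continuous range and not a cell type: 38.8%, 22.5%, 30.5% and 37.6% of germ cells lay at 15 to 24 UMIs, as did 8.73%, 9.23%, 6.3% and 8.5% of interstitial cells and at most 1.25% of supporting cells.

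**Figure D4:**
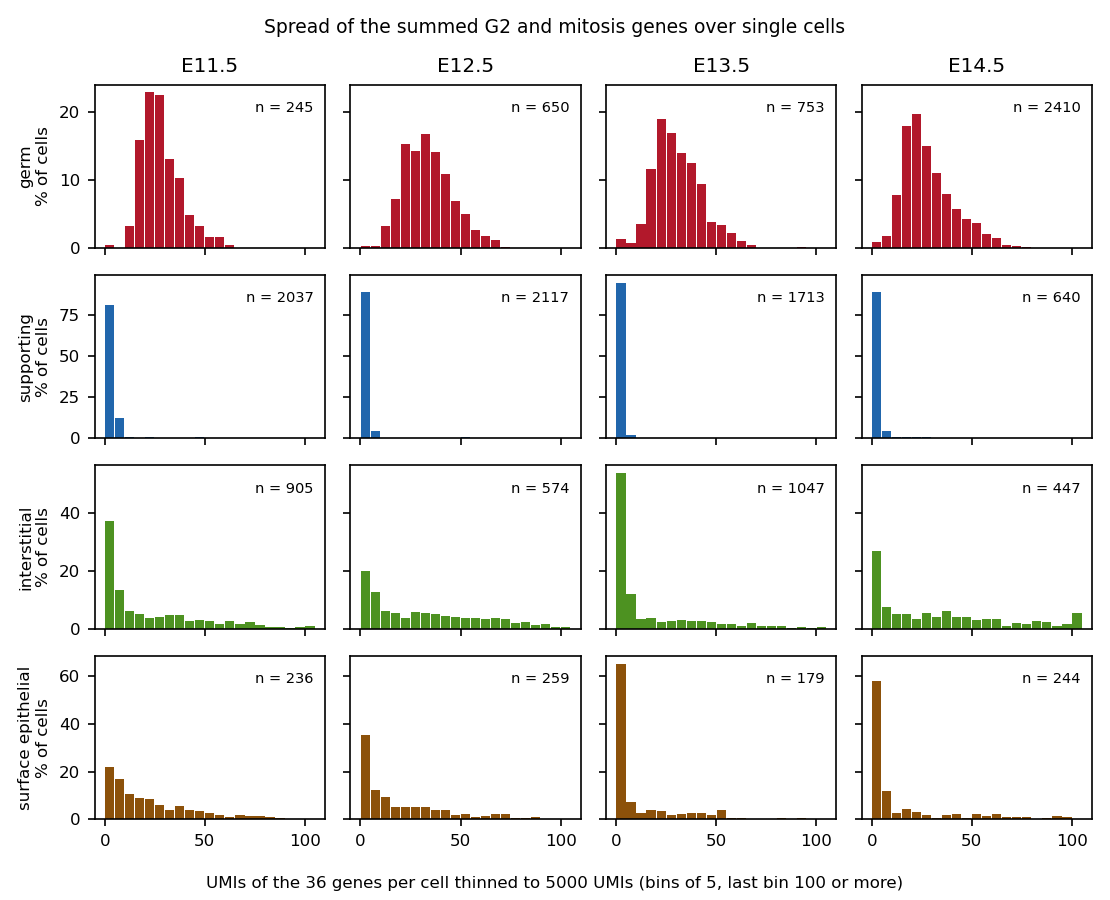
Percent of cells (vertical axis, from 0, one scale per class) by the UMIs of the 36 genes in a cell thinned to 5000 UMIs, in bins of 5, for the 4 classes (rows) and stages (columns), with the number of cells in each panel. Germ cells form 1 peak with medians of 25 to 32 UMIs, supporting cells pile up in the lowest bin, and the other classes have a low peak and a long upper range.

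Correlations between members over single cells were lower in germ cells than in the somatic classes. The Pearson correlation of each member with the sum of the other 35 over thinned cells had a median over members of 0.145, 0.172, 0.189 and 0.209 in germ cells (245 to 2410 cells). It was 0.403, 0.478, 0.293 and 0.466 in supporting cells, 0.512, 0.517, 0.537 and 0.57 in interstitial cells, and 0.4, 0.514, 0.47 and 0.559 in surface epithelial cells. The cells of a stage share a library, and the sparse counts of low genes pull these values towards 0, so they are a description. In interstitial cells Hmgb2 had the highest value, 0.838, 0.847, 0.812 and 0.853, followed by Birc5, Ube2c, Cks2 or Top2a. In germ cells Cks2, Ube2c, Ccnb1 and Cenpf were among the highest at most stages. Hmgb2 was at 0.243, 0.243, 0.443 and 0.5045 in germ cells, the highest value of all members at E14.5. At E11.5 Top2a was at -0.175.

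**Figure D5:**
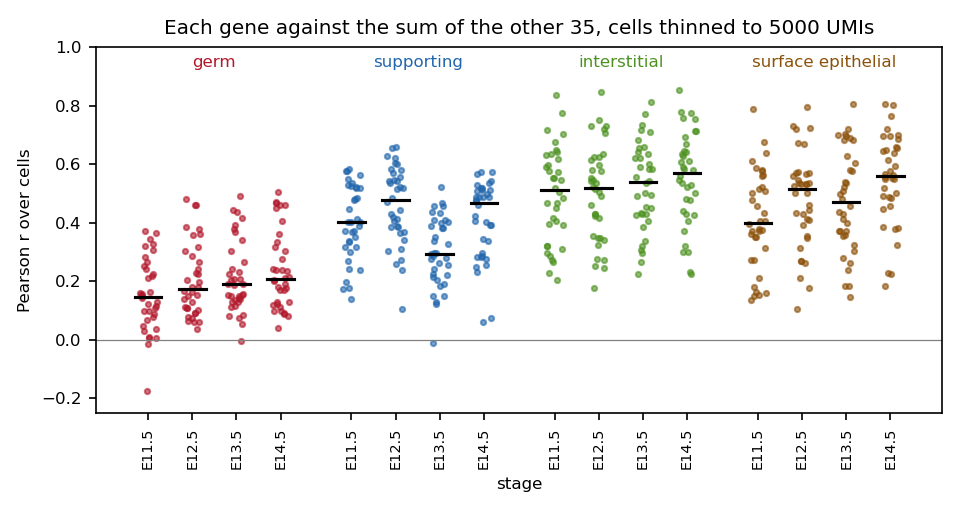
Pearson correlation over cells of each member with the sum of the other 35 (vertical axis), 1 point a gene and a black line at the median, for the 4 classes and stages, in cells thinned to 5000 UMIs. Germ cell medians lie between 0.145 and 0.209 and interstitial medians between 0.512 and 0.57.

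Supporting cells had the lowest level of the classes, 1187, 1085, 605 and 988 CPM in stage order. Germ cells stood above them by log2 ratios of 2.26, 2.66, 3.33 and 2.57, and 33 of 34, 35 of 35, 35 of 35 and 33 of 34 members that met the minimums were called higher in germ cells, where 15.4%, 17%, 19.1% and 20% of all genes were. At E14.5 the exceptions in size were Cdk1, at 64.5 CPM in germ and 33.00 CPM in supporting cells, which was not called, and Aurkb, at 15.01 and 10.95 CPM, under the minimum. The widest gap at that stage was Bub1, at 102 against 5.82 CPM. Against interstitial cells the sums were alike at E12.5, with a log2 ratio of 0.02 (0.01 to 0.04). At E14.5 2 members, Bub1 and Ect2, were higher in germ cells and 11 were lower (background 19.5% and 25.2%), with Aurkb at 15.01 against 83.04 CPM, Cdk1 at 64.5 against 215 CPM and Birc5 at 162 against 383 CPM. The same 3 were the members called lower in germ cells at E12.5 (background 13.4% higher, 27.6% lower), where Gtse1 was higher. At E12.5 both shares of members lay below the background, and at E14.5 the share that was lower lay near it. In bulk sums of a class, fewer cycling cells and less RNA per cycling cell cannot be told apart.

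In supporting cells E14.5 against E11.5 gave -0.26 (-0.30 to -0.23), with 0 members higher and 1, Ccnb1, lower of 16 (background 5.76% and 3.5%). Ccnb1 was at 47.4, 26.2, 14.96 and 22.2 CPM, and Cks2 and Hmgb2, the most abundant, at 167, 110.2, 75.1 and 102 CPM and 299, 250.5, 163 and 237 CPM. Mki67 and Hmmr had the highest log2 ratios, 1.38 (1.06 to 1.69) and 1.19 (0.80 to 1.56), but stayed under 20 CPM. Ccnb2 and Gtse1 were the lowest after Ccnb1, at -0.90 (-1.16 to -0.64) and -0.90 (-2.01 to 0.06). Gtse1 had only 10 UMIs at E14.5 and 76 at E11.5 and did not meet the minimums. The step to E12.5 had 1 member higher, Cenpe, and 0 lower (background 2.33% and 2.14%). All members but Anln were lowest at E13.5. That step gave -0.84 (-0.87 to -0.81) with 6 of 17 lower (background 0.574%), among them Top2a at 36.7, 68.6, 29.2 and 52.1 CPM, and the next step 0.71 (0.67 to 0.75) with 3 of 15 higher (0.78%). The sign of the whole period is not fixed by these data: with only cells of at least 9791 UMIs, the highest of the 4 libraries' lowest totals, the sums were 1197, 1085, 704 and 1356 CPM. Erythroid markers summed to 974, 5972, 5208 and 14647 CPM in these cells, and their part was not tested beyond leaving out cells with over 1% of such UMIs, which gave -0.34.

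Interstitial cells gave 4928, 6759, 3859 and 6741 CPM, a log2 ratio of 0.45 (0.43 to 0.47) for E14.5 against E11.5, with 11 of 35 members higher and 0 lower (background 4.52% and 3.14%). All but 3 of the 11 were spindle or cytokinesis genes. The 3 highest ratios were those of Mki67, at 44.5, 130.3, 56.2 and 147 CPM, Nusap1, at 74.5, 164, 91.2 and 208 CPM, and Kif11, the motor that separates spindle poles, at 19.3, 50.98, 22.5 and 47.3 CPM. The 3 lowest were Hmgb2, Cks2 and Ccnb2, with log2 ratios of 0.04, 0.06 and 0.07. Top2a was at 236, 492, 241 and 462 CPM and Ccnb1 at 158, 171, 104.8 and 220.1 CPM. The steps were 0.46 (11 of 35 higher, background 1.86%, and 0 lower, 0.831%), -0.81 (12 lower, 1.42%, and 0 higher, 1.08%) and 0.80 (16 higher, 1.68%). The E13.5 value moved with the depth of the cells: of 1047 interstitial cells at E13.5, 426 had at least 9791 UMIs, and with that limit the sums were 5205, 6759, 5823 and 6669 CPM, a step of -0.22 in place of -0.81. Erythroid markers summed to 1333, 3941, 3712 and 7758 CPM in this class, and the ratio of E14.5 against E11.5 kept its sign without cells of over 1% of such UMIs.

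Surface epithelial cells gave 4504, 4542, 2652 and 3331 CPM, a log2 ratio of -0.44 (-0.47 to -0.40) for E14.5 against E11.5, with 0 of 29 members higher and 1, Ccnb2, lower (background 5.41% and 2.34%). Ccnb2 was at 140.0, 100.3, 62.8 and 58.8 CPM and Cks2 at 300.4, 248, 162 and 170.3 CPM. The other low ratios were Gtse1, -1.14, and Ccna2, -0.85, and the 3 highest were Mki67, 0.61, Kif20b, 0.60, and Nusap1, 0.56, none called. Gtse1 had only 11 UMIs at E14.5 and 35 at E11.5, with an interval of -2.27 to -0.13, and did not meet the minimums. The step to E12.5 had 1 member higher, Mki67, and 0 lower (background 1.59% and 0.542%). The E13.5 step was -0.78 with 17 of 34 lower (background 1.99%), and the next 0.33 with 3 of 28 higher (2.35%) and 0 lower (0.881%), the 3 being the kinesin motors Kif11, Kif23 and Kif20b. With the limit of 9791 UMIs the sums were 4532, 4542, 2796 and 4864 CPM, so the E13.5 level stayed below that of E12.5 while the E14.5 level stood above E11.5. Erythroid markers summed to 937, 3400, 881 and 14116 CPM in this class, and their part was not tested beyond the same exclusion, under which the result kept its sign.

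A wider list of 58 genes of the same pathway that are no members was followed in germ cells. For E14.5 against E11.5, 4 of 46 that met the minimums were higher (Casc5, Cenpk, Ncapg and Kif4) and 3 were lower (Mybl2, H2afx and Cdca5), where 22.4% of all genes were called higher and 8.05% lower. Casc5, the kinetochore scaffold that recruits Bub1, was at 10.3 CPM in the E11.5 library and 37.1 CPM in that of E14.5. Mybl2, the activator that joins MuvB, was at 155 and 53.1 CPM. The list's sum gave -0.22 (-0.24 to -0.21). With Stra8 at E14.5, high against none, 1 of 46 was higher and 11 were lower, where 12.9% of all genes were called higher and 11% lower, and the sum gave -0.48 (-0.51 to -0.46). The one that was higher was Cenpk, a constitutive centromere protein, at 14.4 CPM in none and 45.1 CPM in high cells. The lower ones included the checkpoint protein Bub3, at 141 and 45.4 CPM, Incenp, the scaffold of the passenger complex, at 141 and 57.8 CPM, and Prc1, the midzone bundler, at 145 and 62.8 CPM. The median of the 36 members in that comparison was -0.52 and that of all genes tested 0.09.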

How the data were processed

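Gonad cells of 4 libraries, 1 per stage, were analysed. Reads were processed with Cell Ranger 2.2.0 against mm10, per the submitters' processing notes. The deposited values are natural log values, ln(1 + a gene's UMIs per 10000 of its cell), as read from the values themselves: all 69792436 values above 0 (100%) were whole multiples of 1 UMI at a relative tolerance of 1e-06, so counts were recovered and summed. The authors' cell calling and filters are not given in the sources used here.

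Cells with over 20% mitochondrial UMIs (3, 1, 1 and 0) and doublets called with Scrublet in scanpy 1.11.5 (rate 0.06; 113, 104, 106 and 94 cells, or 2.30%, 2.15%, 2.19% and 1.96%) were left out. Classes needed 3 markers; the interstitial and surface epithelial marker lists were set for this work. UMIs of a class were summed per library and scaled to CPM. Ratios carry exact binomial intervals, levels Poisson and shares Clopper-Pearson intervals. Per-cell shares used cells thinned to 5000 UMIs (2000 as an alternative). The fold rule was tested on simulated data for germ cells, E14.5 against E11.5: over 19321 genes, of which 5079 met its minimums, it found 100% of 4-fold changes and called 0 unchanged genes. The simulated counts held Poisson counting error only, and the changes were set in genes above the minimums. The simulation therefore says nothing about 2-fold differences or about variation between cells or libraries. Library-to-library variation could not be estimated.

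The members, the other lists and the comparisons were chosen with earlier results of these data known. Every member may be named; values by stage are given for the most abundant of each role, for Top2a, Mki67, Cdk1, Ccnb1, Ccna2, Plk1, Aurka, Cdc20, Hmgb2, Cenpa and Cks2, and for the 3 highest and 3 lowest ratios of each comparison. Others were named after their values were seen. Alternatives covered doublets, markers needed, depth, scaling, cell weights and how members are combined.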

Additional observations from a re-analysis of the deposited data

Results flagged for a closer look

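Cells outside the 4 classes also carried the set. Cells that met no class rule (935, 688, 535 and 472 in stage order) gave 3718, 3819, 2730 and 5955 CPM of the 36 genes. Erythroid markers made up 77931, 12366, 19653 and 33692 CPM in them, and their part was not tested. Cells that met several somatic rules (442, 449, 508 and 480) gave 5496, 4840, 2974 and 3453 CPM. They were listed here because they carry a signal in cells that no comparison used; there are no control cells for it, and the values lie far above the limit that a count of 0 allows.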

How the results depend on the processing

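No paired analysis was possible because each stage is 1 library and the labels give no replicate numbers; for the same reason no replicate could be left out. Values are log2 ratios of the summed set. For germ cells, E14.5 against E11.5 (0.04 as reported), the value was -0.23 with median-of-ratios scaling, -0.0269 without Hmgb2, 0.13 with at least 2 markers, 0.00930 with equal weight per cell and 0.23 as the median of the members. The 7 members called became 16 at a ratio of 1.5 (9 higher, 7 lower) and 0 at a ratio of 4. For E13.5, Stra8 high against none (-0.22), it was -0.0116 with at least 2 markers, -0.45 with median-of-ratios scaling, -0.34 as the median, -0.44 without Hmgb2 and, in a comparison added after the data were seen, -0.078 with middle and high cells together. For E14.5, high against none (-0.42), it was -0.10 with at least 2 markers, -0.53 with at least 4, -0.52 with class and Stra8 read in thinned cells, -0.39 with equal weight, -0.52 as the median, -0.62 without Hmgb2 and, added after the data were seen, -0.54 without germ cells that meet a somatic rule. For supporting cells (-0.26), it was 0.10 with at least 2 markers, 0.16 with classes read in thinned cells, 0.18 with the common minimum of 9791 UMIs, -0.39 with median-of-ratios scaling, -0.32 with equal weight, -0.11 as the median and, added after the data were seen, -0.34 without cells of over 1% erythroid UMIs. For interstitial cells (0.45), it was 0.54 with at least 2 markers, 0.15 with at least 4, 0.40 with thinned classes, 0.36 with the common minimum, 0.50 with median-of-ratios scaling, 0.65 with equal weight, 0.54 as the median and 0.57 without Hmgb2. For surface epithelial cells (-0.44), it was 0.10 with the common minimum, -0.22 with at least 2 markers, -0.54 with equal weight, -0.33 as the median and -0.36 without Hmgb2. The germ cell step E14.5 against E13.5 (-0.05) was 0.032 with at least 2 markers and 0.034 as the median. The cause of these differences was not tested, except that fewer or more cells enter a class by construction. Of single members and steps, 1452 values moved by less than counting error and 394 moved by more. A further 2 changed sign, both for the germ cell step E14.5 against E13.5. These 2 do not cover single members. A member near 0, such as Cdc20 at 0.018 for germ cells, E14.5 against E11.5, can change sign with the scale.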

Other observations

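A list of 25 S-phase genes was followed in the same cells. In germ cells it summed to 2301, 2600.1, 2843 and 3339 CPM in stage order, a log2 ratio of 0.54 (0.51 to 0.56) for E14.5 against E11.5, with 2 genes higher and 1 lower of 23 that met the minimums, where 22.4% of all genes were called higher and 8.05% lower. Hells, a chromatin remodeller needed for DNA methylation and for meiotic recombination sites, was at 383 CPM in the E11.5 library and 1383 CPM in that of E14.5, and Uhrf1, which recruits the maintenance methyltransferase, at 7.44 and 43.8 CPM. Hells alone made up nearly all of the difference in the sum. Ung, the uracil glycosylase, was at 283 and 109 CPM. At E14.5 the list summed to 3003, 3192, 3144 and 3633 CPM from no Stra8 to high Stra8, a log2 ratio of 0.27 (0.24 to 0.31) for high against none, where Uhrf1 was higher at 64.5 against 18.5 CPM and Ung lower at 89.1 against 194 CPM of 24 that met the minimums (12.9% of all genes higher, 11% lower). In interstitial cells the same list gave -0.35 (-0.38 to -0.31) for E14.5 against E11.5, with 0 of 24 genes called in either direction, where 4.52% of all genes were called higher and 3.14% lower.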
